A study of Mus musculus with 3 samples.

Results

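The melanosome biogenesis and transport machinery was described in 3 primary cultures of mouse ocular pigment epithelium. The genes were 35 named members of the BLOC, AP-3 and AP-1 complexes, the HOPS tether, the Rab and myosin transport system and melanosome membrane proteins. Probe sets annotated to these genes were found for 33 of the 35 members, among 18193 genes in all, and the brightest probe set of each gene, by mean log2 over the arrays, was used. Cd63 had no probe set in the annotation used, and the probe set of Bloc1s1 is shared with another gene and was not used. The 33 measured members had 71 probe sets, and 21 of them had more than 1.

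Melanosomes are the organelles that make and hold melanin, and they belong to the lysosome-related organelles. They start from endosomes: adaptor complexes and the BLOC complexes sort pigment enzymes out of endosomes, Rab GTPases mark the carriers and the organelle, and tethers and motors bring about fusion and movement. Loss of many of these genes lightens the coat and eyes of mice, and in people it causes Hermansky-Pudlak, Chediak-Higashi or Griscelli syndrome. In the eye the same machinery serves the pigmented layers of the iris, the ciliary body and the retina.

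The cultures came from iris (IPE), retinal (RPE) and ciliary body (CBPE) pigment epithelium of C57BL/6 mice of 6 to 8 weeks, with no genetic change or treatment named. The medium of IPE and CBPE was RPMI 1640 containing 10% serum, that of RPE was DMEM containing 20%, and all were left overnight without serum before RNA extraction. The labels give cytokeratin-positive shares of over 99% for IPE and over 95% for RPE and CBPE, the last pair after 14 days of culture. Each culture was hybridised to 1 array, so every value is a single measurement, no test between cultures was possible, and tissue cannot be told apart from medium in a comparison with RPE.

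Signals are deposited linear intensities, scaled to a trimmed mean of 100.001 on every array. A floor was set at each array's median signal, 14.5 for IPE, 16.8 for RPE and 17.3 for CBPE, and lower signals were raised to it before log2 differences were taken. Bacterial transcripts absent from the samples reached 7.9 in IPE, 16.6 in RPE and 20.2 in CBPE, so a fold over a dim CBPE signal is given as at least the ratio to 20.2, while counts and log2 differences keep the floor of 17.3. The only error that could be measured, how far the probe sets of a gene disagreed, had a pooled SD of the log2 difference of 0.45 for IPE minus RPE, 0.49 for IPE minus CBPE and 0.29 for RPE minus CBPE. For Actb, the 3′ control signal over the 5′ one was 1.5 in IPE, 2.25 in RPE and 2.26 in CBPE, and the 75th percentile of all signals was 100.2, 82.9 and 76.4 in the same order. These array properties set IPE apart together with the members described below, and their part in the differences was not tested. Of 12 pigment epithelium markers, 6 were above the floor in IPE, 6 in RPE and 7 in CBPE, with summed signals of 1801.6, 621.1 and 748.1. Otx2, Mitf, Rlbp1 and Pax6 in IPE exceeded each of the other cultures 2-fold or more, while the epithelial keratin genes Krt8 (17.4, 26.2 and 95.3 in IPE, RPE and CBPE) and Krt18 (144.1, 218.6 and 422.4) were at least 2-fold lower in IPE than in CBPE. The part of these markers in the members' differences was not tested. The retinal epithelium genes Rpe65, Rgr and Lrat were under the floor on all 3 arrays, the RPE array included. Best1 and Ttr passed the floor in CBPE alone, at 25.1 and 41.1, and Ttr was at least 2-fold lower in IPE and in RPE than in CBPE.

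The members that set IPE apart lay mostly among the Rab GTPases, the motors, Lyst and the membrane proteins. By their brightest probe sets, the members of AP-3, AP-1, BLOC-3 and HOPS stayed within 2-fold. A further probe set of Ap3b1 was 3.03-fold higher in IPE than in RPE and 4.58-fold higher than in CBPE. One of Ap1g1 was 2.24-fold and 2.09-fold higher. Others were over 2-fold higher in IPE for Vps18 against RPE (3.63-fold) and for Vps33a against CBPE (at least 2.67-fold). The contrast with AP-3, AP-1 and HOPS thus rests on the brightest probe sets. Of the 33 measured members, 6 exceeded both RPE and CBPE at least 2-fold in IPE: Hps6, Rab27a, Rab32, Myo5a, Lyst and Gpnmb. Among the 13345 genes that passed the floor on any array, 6.39% met the same limit. Bloc1s3 was at least 2-fold lower in IPE than in both others, as were 6.13% of all genes. Hps5, Rab27a and Rab38 in CBPE lay at least 2-fold under both others, which held for 2.19% of all genes, but Rab27a did so against RPE only with its CBPE signal at the floor of 17.3 and not by the limit of 20.2. A difference of at least 2-fold in any comparison was found for 10 members, Bloc1s2 included, or 30.3%, against 31.4% of all genes, and the other 23 members stayed within 2-fold in all 3 comparisons. The members as a whole thus differed about as often as genes at large. In the plot of signals by member, 30 of the 33 members are above the floor on all 3 arrays, beside 10244 of the 18193 genes in all.

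**Figure D1:**
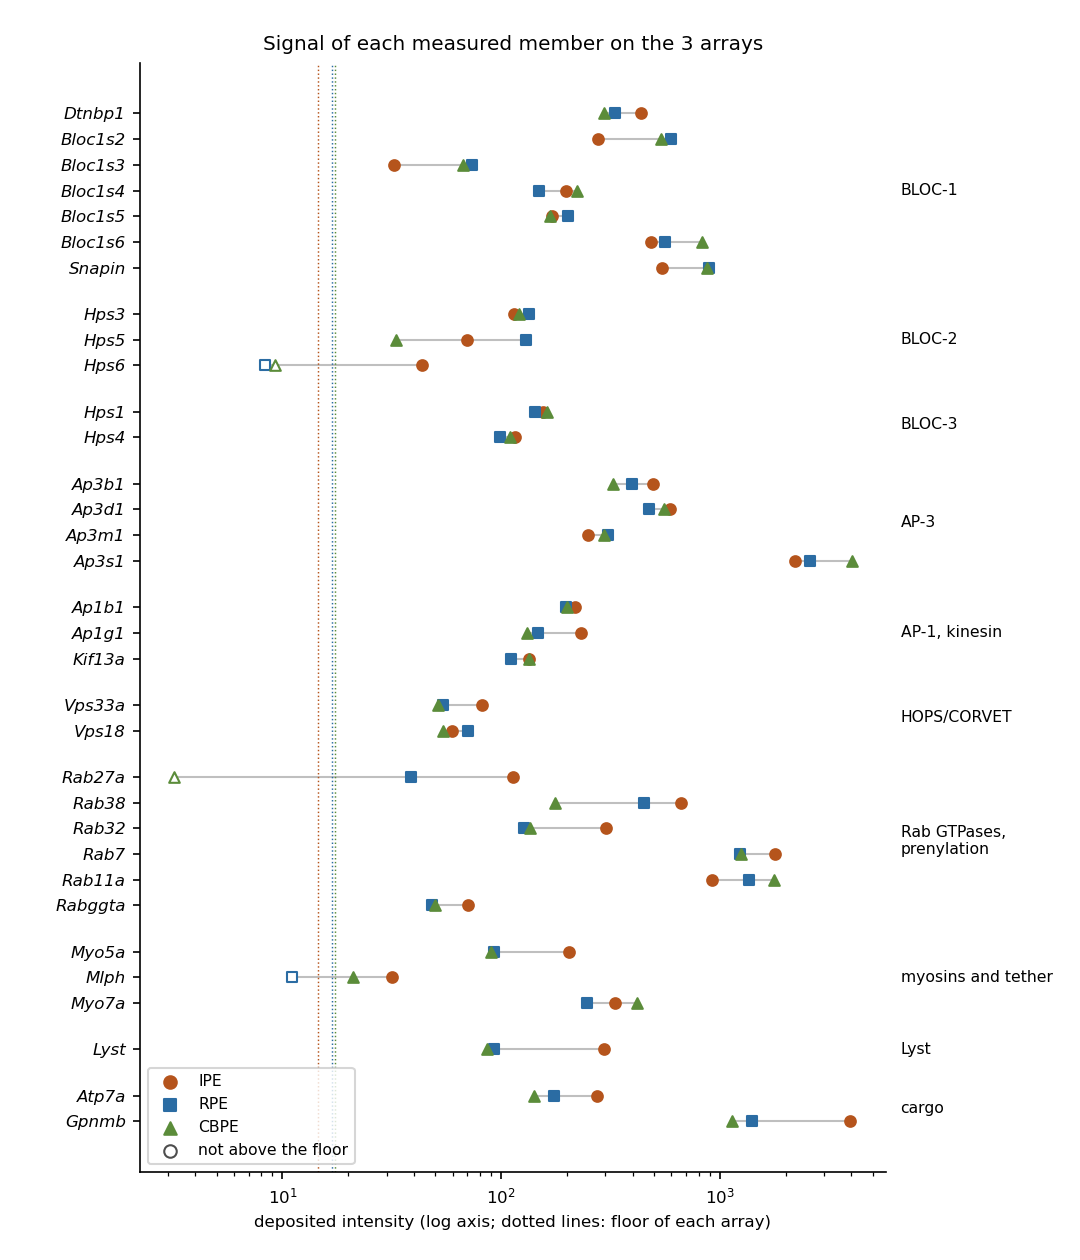
Deposited intensity (log axis) of the brightest probe set of each of the 33 measured members on the 3 arrays, grouped by role, with IPE as circles, RPE as squares and CBPE as triangles. Open symbols are signals not above that array's floor (dotted lines), which are Hps6 in RPE and CBPE, Rab27a in CBPE and Mlph in RPE; Rab27a, Lyst, Gpnmb, Myo5a and Rab32 have IPE farthest to the right.

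In IPE against RPE, 6 members were at least 2-fold higher and 2 lower, where 10.5% of the 12446 genes tested were higher and 9.87% lower. In IPE against CBPE, 8 were higher and 1 lower, against 12.5% and 11.8% of 12831 genes. In RPE against CBPE, 3 of the 32 members with a signal above the floor were higher and none lower, against 3.75% and 4.26% of 12860 genes. With the CBPE floor raised to 20.2, an alternative chosen after seeing the data, Rab27a dropped out and 2 were higher, against 3.42% of genes. As shares, 18.2% of the members were higher in IPE than in RPE and 24.2% higher in IPE than in CBPE. The median log2 difference of the members was 0.33 for IPE minus RPE, 0.14 for IPE minus CBPE and 0.05 for RPE minus CBPE, beside -0.02, -0.04 and 0.00 for all genes tested. The 2 comparisons with IPE share the IPE array and are not independent of each other.

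**Figure D2:**
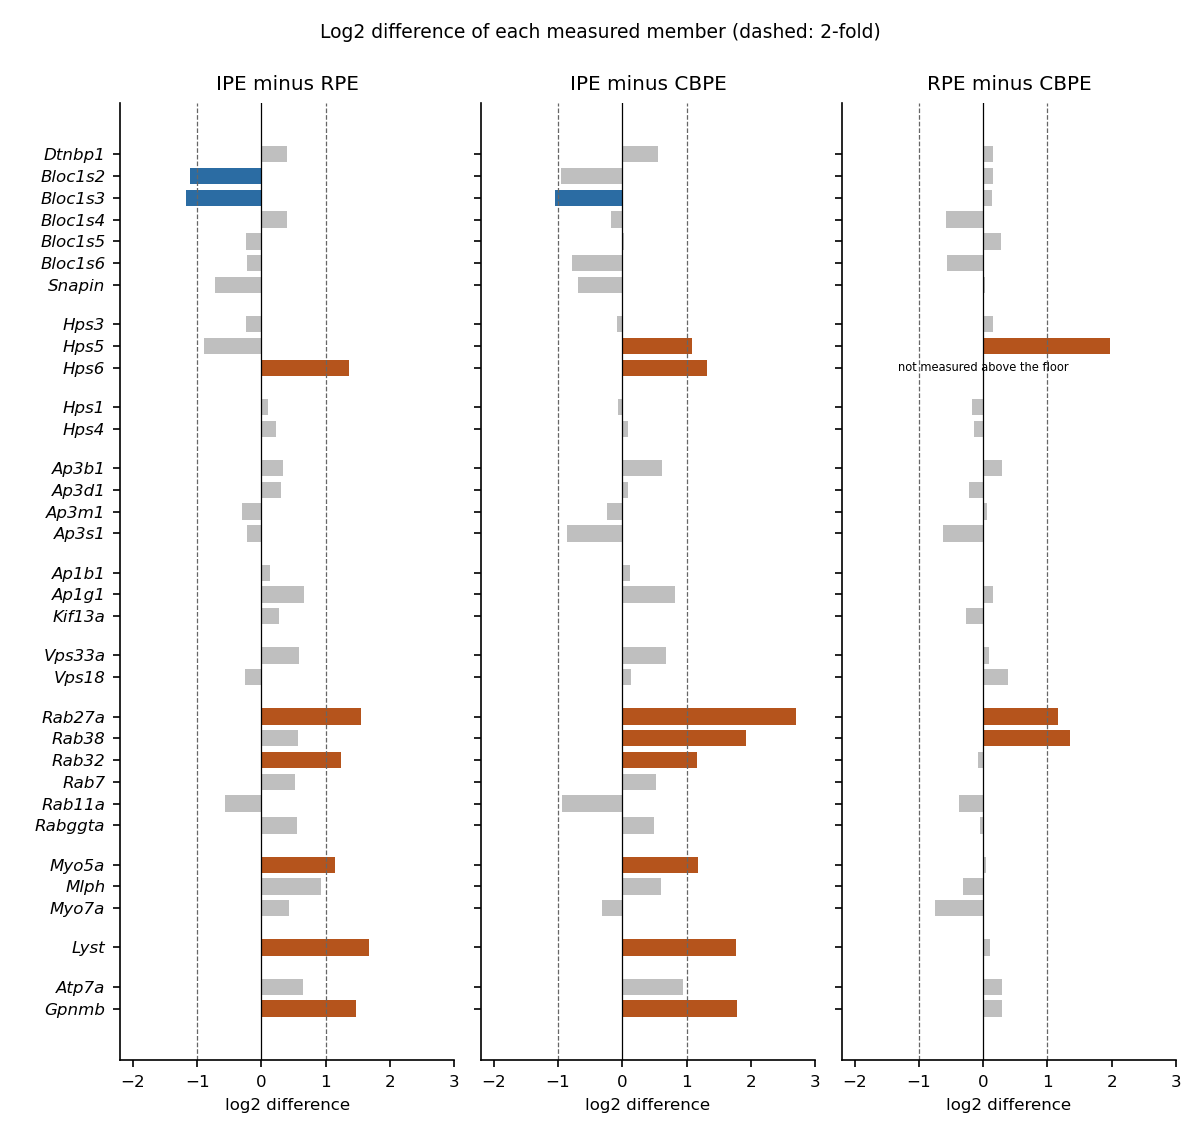
Log2 difference of each measured member for IPE minus RPE, IPE minus CBPE and RPE minus CBPE, with dashed lines at a 2-fold difference; members at least 2-fold higher in the first-named culture are brown, those at least 2-fold lower are blue and the others are grey. Hps6, Rab27a, Rab32, Myo5a, Lyst and Gpnmb are brown in both IPE panels, Hps5 and Rab38 also in IPE minus CBPE, and Hps5, Rab27a and Rab38 in RPE minus CBPE; Bloc1s2 and Bloc1s3 are blue in IPE minus RPE and Bloc1s3 alone in IPE minus CBPE.

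**Figure D3:**
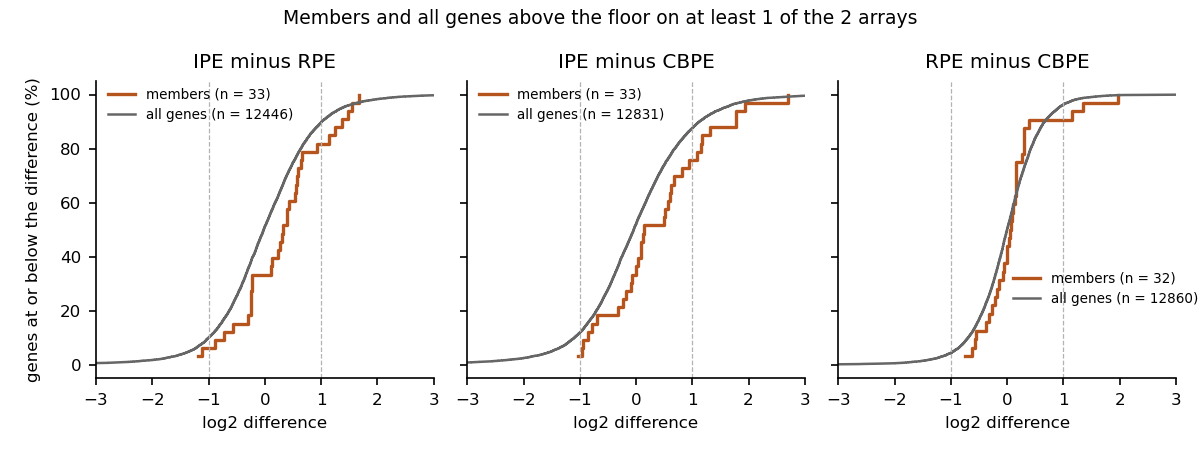
Share of genes (%) at or below each log2 difference, for the measured members (brown steps) and for all genes that passed the floor on either array (grey line). The member line lies to the right of the grey line over most of both IPE panels, with medians of 0.33 and 0.14, and close to it for RPE minus CBPE, with a median of 0.05.

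The promoters of the members were read for CACGTG, the E-box core bound by the MITF and TFE factors that act on pigment and lysosome genes, and for its relative CATGTG. Windows of 300 bases, from 250 before to 50 after a start site, came from RefSeq (GRCm38.p6) and covered 31 of the 35 members; Bloc1s6, Snapin, Ap3s1 and Rab38 had none. CACGTG reads the same on both strands and was found in at least 1 window of 9 of the 31 members, or 29.0%, against 8.91% of 17492 protein-coding genes and 7.15% of all 32851 windows. CATGTG or its complement CACATG was found for 4 of 31 members, or 12.9%, against 13.2% of protein-coding genes. In 8 of the 9 members CACGTG was followed by A or preceded by T (CACGTGA or TCACGTG). That is 25.8% of the 31 members with a window, against 5.0% of protein-coding genes. Of the protein-coding genes, 1559 held CACGTG and 874 held the longer form. The longer form was counted after the matches had been seen. The 9 members were Bloc1s1, Bloc1s3, Hps3, Hps5, Hps1, Vps33a, Rab27a, Mlph and Atp7a. Of the 6 members with IPE at least 2-fold above both others, Rab27a alone held CACGTG, in the window of its second listed start, and the windows of Hps6, Rab32, Myo5a, Lyst and Gpnmb did not. A match is a description of these letters and not of a factor's binding.

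The stretches that hold the matches in 7 of the 9 members, all but Bloc1s1 and Hps1, are shown 5′ to 3′ with CACGTG in capitals, since the match recurs in BLOC genes, the tether gene Vps33a, the Rab gene Rab27a, the linker gene Mlph and the copper pump gene Atp7a. They are chr7:46796032-46796131 (minus strand) for Hps5, chr5:123572966-123573065 (minus) for Vps33a, chr3:20035261-20035360 (minus) for Hps3, chr7:19508321-19508420 (minus) for Bloc1s3, chr1:90915020-90915119 (plus) for Mlph, chrX:106027104-106027203 (plus) for Atp7a and chr9:73063898-73063997 (plus) for Rab27a.
Hps5: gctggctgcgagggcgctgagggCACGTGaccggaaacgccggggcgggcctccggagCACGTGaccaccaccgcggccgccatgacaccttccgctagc
Vps33a: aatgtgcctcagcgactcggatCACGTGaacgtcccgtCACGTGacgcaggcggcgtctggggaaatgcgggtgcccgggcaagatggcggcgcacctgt
Hps3: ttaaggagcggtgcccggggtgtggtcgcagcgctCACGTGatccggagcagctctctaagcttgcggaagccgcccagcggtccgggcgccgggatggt
Bloc1s3: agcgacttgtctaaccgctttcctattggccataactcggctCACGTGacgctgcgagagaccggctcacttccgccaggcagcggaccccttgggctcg
Mlph: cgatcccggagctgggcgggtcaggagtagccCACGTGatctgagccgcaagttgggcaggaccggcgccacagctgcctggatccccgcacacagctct
Atp7a: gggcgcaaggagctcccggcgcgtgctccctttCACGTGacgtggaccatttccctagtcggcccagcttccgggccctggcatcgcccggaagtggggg
Rab27a: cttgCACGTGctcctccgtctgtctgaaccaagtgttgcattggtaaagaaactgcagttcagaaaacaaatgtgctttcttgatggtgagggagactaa
In Vps33a the matches start 28 and 12 bases before the start site (-28 and -12), in Hps3 at -15, in Bloc1s3 at -8, in Mlph at -48 and in Atp7a at -87, while in Hps5 they start at -227 and -192 and in Rab27a at -246. For comparison, the whole windows of Gpnmb (chr6:49036268-49036567, plus) and Lyst (chr13:13590159-13590458, plus), whose signals were at least 2-fold higher in IPE by the brightest and by a further probe set, hold neither CACGTG nor CATGTG.
Gpnmb: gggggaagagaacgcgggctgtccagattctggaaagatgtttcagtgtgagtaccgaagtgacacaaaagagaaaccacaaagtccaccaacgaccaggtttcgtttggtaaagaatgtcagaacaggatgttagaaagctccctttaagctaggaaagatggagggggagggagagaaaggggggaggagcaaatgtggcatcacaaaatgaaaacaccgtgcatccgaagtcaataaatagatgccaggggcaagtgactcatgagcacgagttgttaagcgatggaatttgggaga
Lyst: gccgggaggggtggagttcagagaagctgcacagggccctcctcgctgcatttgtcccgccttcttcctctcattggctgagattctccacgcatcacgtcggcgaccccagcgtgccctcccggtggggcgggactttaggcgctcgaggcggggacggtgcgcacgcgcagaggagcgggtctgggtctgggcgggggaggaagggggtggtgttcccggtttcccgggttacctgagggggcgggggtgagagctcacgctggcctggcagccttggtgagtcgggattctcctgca

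Among the Rab GTPases, the pigment-linked members were highest in IPE. Rab27a, which recruits melanophilin and myosin Va to the melanosome, had a signal of 113.2 in IPE, 38.7 in RPE and 3.2 in CBPE. Its IPE signal was 2.93-fold that of RPE and at least 5.60-fold that of CBPE, where the gene was under the floor, and RPE was at least 1.92-fold above CBPE (log2 1.16 against the floor). The 3 other probe sets of Rab27a were under the floor on every array, so its pattern rests on 1 probe set. The calls of IPE over RPE and CBPE were lost with a floor at the 75th percentile and with averaged probe sets.

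Rab38 and Rab32, close relatives that deliver pigment enzymes to the melanosome, differed in where they were low. Rab38 had a signal of 667.2 in IPE, 448.8 in RPE and 175.7 in CBPE, so that CBPE was the low culture. This was 3.80-fold for IPE over CBPE and 2.55-fold for RPE over CBPE, with 1.49-fold between IPE and RPE, and its other probe set gave 583.4, 391.7 and 111.1 in the same order. Rab32 had 302.8 in IPE, 127.8 in RPE and 135.4 in CBPE, 2.37-fold and 2.24-fold higher in IPE, with RPE and CBPE 1.06-fold apart. Rab32 has 1 probe set, and its call against CBPE was lost with quantile normalization.

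The Rab members with general endosomal work differed less. Rab7, of late endosomes and lysosomes, had 1782.2 in IPE, 1236.9 in RPE and 1246.7 in CBPE, 1.44-fold and 1.43-fold higher in IPE. Rab11a, of recycling endosomes, ran the other way, with 917.5 in IPE, 1360.8 in RPE and 1765.3 in CBPE, and both its probe sets were lowest in IPE. Rabggta, the α subunit of the enzyme that attaches the lipid anchor to Rab proteins, had 70.8, 48.2 and 50 in IPE, RPE and CBPE. None of these 3 genes reached a 2-fold difference.

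Of the motor genes, Myo5a was higher in IPE by all its probe sets. Myo5a encodes the actin motor that holds melanosomes at the cell periphery, and its signal was 204.7 in IPE, 93.1 in RPE and 90.2 in CBPE. Its IPE signal was 2.20-fold that of RPE and 2.27-fold that of CBPE. The other probe sets gave 118.5 in IPE against 62 and 44.9, and 102.9 in IPE against 70.2 and 50.6, in RPE and CBPE. Quantile normalization ended the 2-fold calls against both cultures, and averaging the probe sets ended the call against RPE.

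Mlph, the linker between Rab27a and myosin Va, was near the floor, with 31.8 in IPE, 11 in RPE and 21 in CBPE. Its IPE signal was at least 1.89-fold that of RPE and 1.51-fold that of CBPE, and its other probe set was under the floor on all 3 arrays. Myo7a, the myosin that moves melanosomes in the retinal pigment epithelium, had 333.3 in IPE, 247.4 in RPE and 417.5 in CBPE. It was highest in CBPE and lowest in RPE, 1.69-fold apart, which is under the 2-fold limit.

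Lyst, whose product controls the size of lysosome-related organelles and is lost in the beige mouse, had a signal of 294.8 in IPE, 92.8 in RPE and 86.4 in CBPE. This was 3.18-fold over RPE and 3.41-fold over CBPE, and Lyst was the only member still called against both cultures at a 3-fold limit. A second probe set gave 74.8 in IPE against 11.1 and 5.7 in RPE and CBPE, both under the floor. The remaining probe set was dim and ran differently, with 20.8 in IPE, 6.1 in RPE and 25.9 in CBPE.

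Of the membrane proteins, Gpnmb, a melanosome and lysosome glycoprotein that pigment cells and macrophages make, had 3924 in IPE, 1408.1 in RPE and 1142.7 in CBPE. This was 2.79-fold over RPE and 3.43-fold over CBPE, and a dimmer probe set gave 50.6 in IPE against 15.6 and 6.6, under the floor. Atp7a, the copper pump that supplies tyrosinase, had 273.5 in IPE, 174.3 in RPE and 141.2 in CBPE, 1.57-fold and 1.94-fold higher in IPE. Its second probe set gave 90.4, 59.4 and 7.6 in the same order, with CBPE under the floor, so that IPE was at least 4.48-fold over CBPE. CBPE was lowest by both probe sets.

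**Figure D4:**
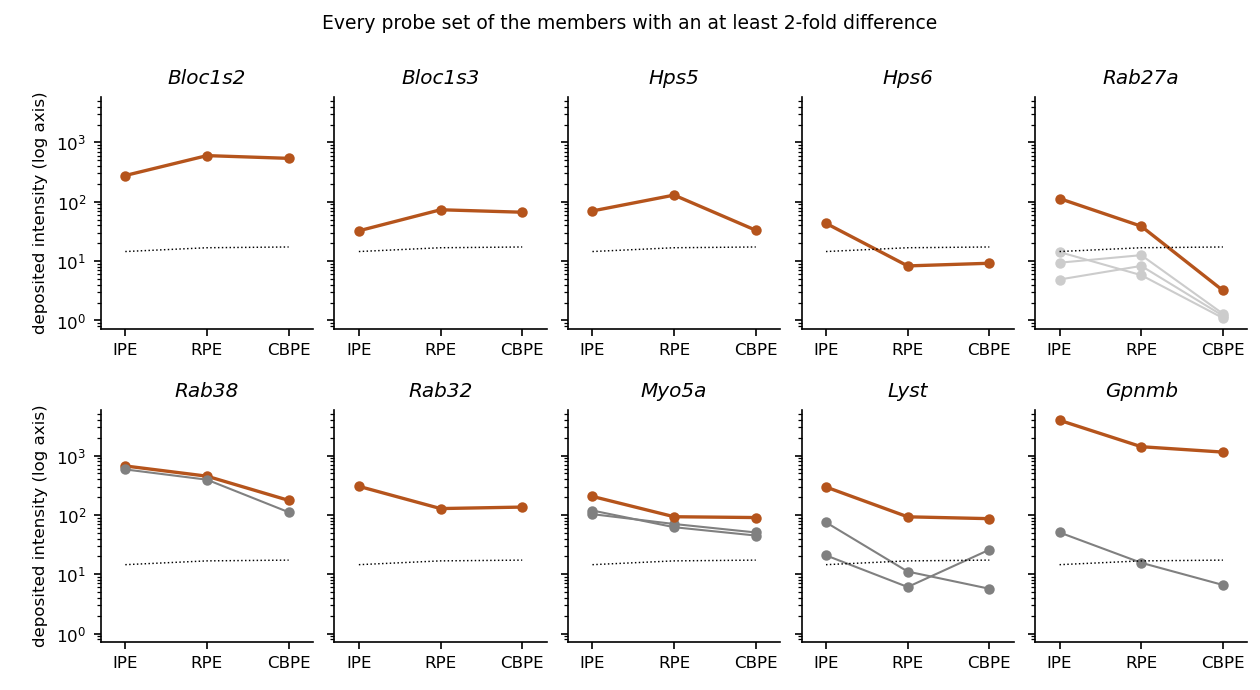
Deposited intensity (log axis) of every probe set of the 10 members with an at least 2-fold difference, in IPE, RPE and CBPE, with the probe set used in brown, others in grey (light grey where under the floor on all 3 arrays) and the floor dotted. The 3 probe sets of Myo5a and the 2 of Rab38 run in parallel, the further probe sets of Rab27a stay under the floor, and 1 dim probe set of Lyst is highest in CBPE.

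The BLOC-1 complex, which carries cargo out of endosomes, showed no gene at least 2-fold higher in IPE by its brightest probe set. Another probe set of Bloc1s6 was 2.27-fold higher in IPE than in RPE and 3.70-fold higher than in CBPE. Of its 7 measured subunits, 2 were at least 2-fold lower in IPE than in RPE, where 9.87% of all genes tested were. Only 1 of the 7, or 14.3%, was lower than in CBPE, near the 11.8% of all genes. The median log2 difference by the brightest probe sets was -0.24 for IPE minus RPE and -0.69 for IPE minus CBPE. Bloc1s2 had 276.8 in IPE, 598.7 in RPE and 538.3 in CBPE, 2.16-fold lower in IPE than in RPE and 1.94-fold lower than in CBPE. Bloc1s3 had 32.4 in IPE, 73.3 in RPE and 66.6 in CBPE, which is 2.26-fold and 2.06-fold lower in IPE. Both have 1 probe set.

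The other BLOC-1 subunits stayed within 2-fold. Snapin, which also binds SNARE proteins, had 543 in IPE, 894.3 in RPE and 877.1 in CBPE and was lowest in IPE by both probe sets. Dtnbp1, which encodes dysbindin, ran the other way, with 435.6 in IPE, 331.2 in RPE and 295.9 in CBPE. Bloc1s4, Bloc1s5 and Bloc1s6 had log2 differences from -0.78 to 0.40. The probe sets of Bloc1s6 disagreed: the brighter gave 482.4 in IPE against 562.7 in RPE and 827.4 in CBPE, and another gave 112.4 in IPE against 49.5 and 30.4, so no direction is given for it.

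The BLOC-2 subunits, which work together to guide endosomal carriers to the melanosome, each had a different pattern. Hps5 had 70 in IPE, 129.5 in RPE and 33.1 in CBPE, so it was highest in RPE, 3.91-fold over CBPE, and IPE was 2.11-fold over CBPE. The call of IPE over CBPE was lost with quantile normalization, and that of RPE over CBPE with a floor at the 75th percentile. Hps6 passed the floor in IPE alone, with 43.3 against 8.3 in RPE and 9.2 in CBPE, so IPE exceeded RPE at least 2.58-fold and CBPE at least 2.14-fold. Hps3 had 114, 134.4 and 121.2 in IPE, RPE and CBPE, within 1.18-fold. Hps5 and Hps6 have 1 probe set each.

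BLOC-3, the exchange factor that activates Rab32 and Rab38, was near even across the cultures. Hps1 had 155.2 in IPE, 143.6 in RPE and 162.5 in CBPE, and Hps4 had 116.2, 99.2 and 109.3. The log2 differences of both genes in the 3 comparisons ran from -0.18 to 0.23. A dimmer probe set of Hps1 gave 52 in IPE, 45.9 in RPE and 34.6 in CBPE, a log2 difference of 0.59 for IPE minus CBPE against -0.07 for the brightest.

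The adaptor genes also stayed within 2-fold by their brightest probe sets. AP-3 sorts tyrosinase from endosomes, and its large subunit gene Ap3d1 had 590.3 in IPE, 475.6 in RPE and 555.4 in CBPE. Ap3b1, the gene of the other large subunit and of the pearl mouse, had 496.2 in IPE, 395.7 in RPE and 323.3 in CBPE, and its second probe set gave 205.1, 67.8 and 44.8. That second probe set had log2 differences of 1.6 for IPE minus RPE and 2.19 for IPE minus CBPE, against 0.33 and 0.62 for the brightest, so the direction was shared and the size was not.

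Ap3s1, of the small subunit, had 2209.7 in IPE, 2597.9 in RPE and 4015.7 in CBPE, which exceeded the others 1.82-fold and 1.55-fold. Ap3m1, of the medium subunit, had 249.6 in IPE, 307.4 in RPE and 294.3 in CBPE, while 2 of its 3 other probe sets were higher in IPE than in both others, so its direction is unsettled. AP-1 acts with the kinesin KIF13A to place recycling endosomes near melanosomes. Ap1g1 was highest in IPE, at 232.7 against 147 in RPE and 132 in CBPE. Its 2 further probe sets above the floor on all arrays had IPE highest too. The first gave 113.4 in IPE against 50.7 and 54.3, which is 2.24-fold over RPE and 2.09-fold over CBPE. The other gave 139.7 against 74.5 and 93, under 2-fold in both comparisons. Ap1b1 had 216.8, 197.6 and 199.3, and Kif13a 133.8, 111.1 and 133.7, in IPE, RPE and CBPE.

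The tether genes Vps33a and Vps18 encode core subunits of HOPS, which joins late endosomes and lysosomes. Vps33a, mutated in the buff mouse, had 81.9 in IPE, 54.4 in RPE and 51.2 in CBPE, and its second probe set gave 53.9, 29.9 and 14.6. Both placed IPE highest, below 2-fold by the brighter. Vps18 had 59.4 in IPE, 70.8 in RPE and 54 in CBPE, while its _a_at probe set gave 93, 25.6 and 51.1, so its order differed between probe sets.

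Other genes of the same pathway were set beside the members: 53 genes of AP-3 and AP-1 subunits, HOPS and CORVET, Rab partners, SNAREs and motors, of which 49 were measured. In IPE against RPE 3 of 43 were 2-fold or more higher and 1 lower (6.98% and 2.33%), beside 10.5% and 9.87% of all genes tested. In IPE against CBPE 5 of 44 were higher and 4 lower (11.4% and 9.09%), beside 12.5% and 11.8% of genes. In RPE against CBPE 1 of 45 was higher and 1 lower, beside 3.75% and 4.26% of genes. The median log2 differences were 0.08, 0.01 and 0.02, near those of all genes. Kif5b, the heavy chain of conventional kinesin, differed in all 3 comparisons, with 477.3 in IPE, 152.5 in RPE and 66.1 in CBPE. Sytl2, a Rab27 effector gene, was low in RPE, with 124 in IPE, 22.8 in RPE and 84.3 in CBPE. Ap3s2, the alternative small subunit gene of AP-3, was low in IPE, at 38.6 against 104.6 in RPE and 89.8 in CBPE.

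The remaining called genes of that pathway list are named because the counts are small, and were chosen after their values were seen. Myo10, an unconventional myosin gene, was higher in IPE than in RPE, at 367.7 against 145.3. Higher in IPE than in CBPE were Vps11 of the HOPS core (2.14-fold), Rab8a (2.55-fold), and the Rab escort protein genes Chm (2.80-fold) and Chml (at least 2.62-fold). Lower in IPE than in CBPE were Ap3b2, Sytl4 and Rilp, each under 50 on every array.

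**Figure D5:**
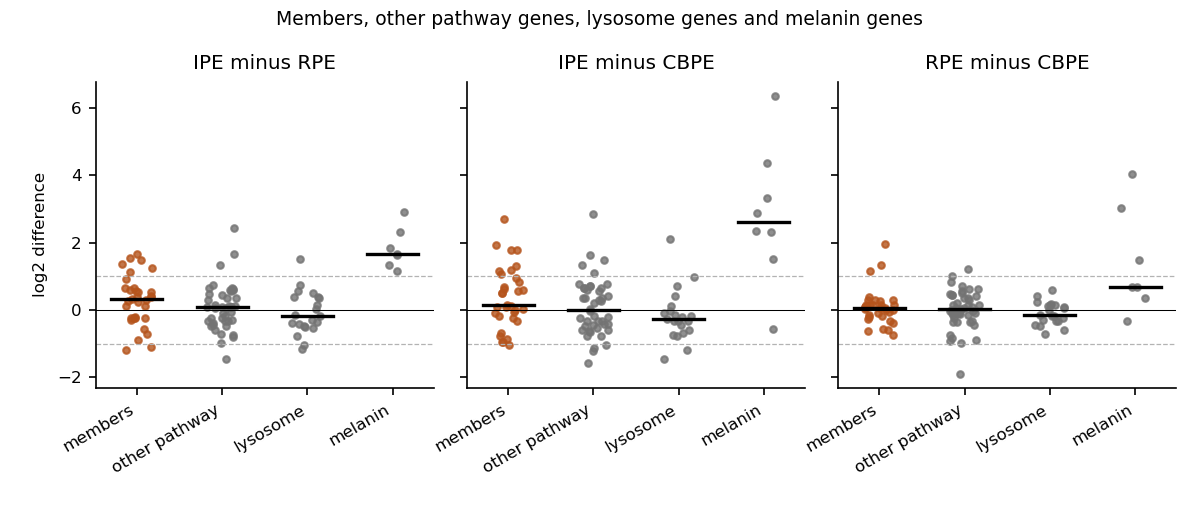
Log2 differences of the members, other pathway genes, lysosome genes and melanin genes that passed the floor on either array, 1 point per gene with horizontal jitter, with the list median as a black bar and dashed lines at 2-fold. Medians for IPE minus CBPE are 0.14 for the members, 0.01 for the other pathway genes, -0.26 for the lysosome genes and 2.61 for the melanin genes.

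By list median, the members lay between the melanin genes and the lysosome genes in all 3 comparisons. The other pathway genes and all genes tested did so too, so this place is not particular to the members. Of 7 genes of melanin synthesis and pigment above the floor, all 7 exceeded RPE at least 2-fold in IPE, with a median log2 difference of 1.65, and 7 of 8 exceeded CBPE at least 2-fold, with a median of 2.61. Mitf, the transcription factor of pigment cells, had 321.1 in IPE, 102 in RPE and 63.3 in CBPE. Of 21 lysosome genes, 1 was at least 2-fold higher and 2 lower in IPE than in RPE, and the same counts held against CBPE, with medians of -0.18 and -0.26. The higher one was Scarb2, a lysosomal membrane protein gene, with 2000.8 in IPE, 698.1 in RPE and 460.9 in CBPE, and the lower ones were the proton pump genes Atp6v0e and Atp6v1h. The difference between the lists was not tested, since there is 1 array per culture.

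Markers of other cells that use this machinery moved between the arrays as well. Of 7 melanocyte markers, 5 were above the floor in IPE, 2 in RPE and 2 in CBPE, with summed signals of 516, 136.5 and 132.9. Mlana and Pmel, which pigment epithelium can also express, gave most of that sum in IPE and RPE. The melanocyte and glial factor Sox10 (25.7), Ednrb (33.6) and Erbb3 (40.7) passed the floor in IPE alone. Kit passed it in CBPE alone, at 36.6, and Mc1r on no array. The melanocyte list was thus highest in IPE together with Rab27a, Myo5a, Lyst and Gpnmb, and its part in those differences was not tested. Of 11 macrophage markers, 5 were above the floor in IPE, 7 in RPE and 9 in CBPE, with summed signals of 371.7, 550 and 2426.9. Macrophages also make Gpnmb, and their part in its signal was not tested. The summed signal of 7 fibroblast markers was 26858.5 in IPE, 37536.5 in RPE and 47188.9 in CBPE. Against that order, Pdgfra was highest in IPE, at 2020.3 against 958.1 in RPE and 776.6 in CBPE. Dcn was 2.06-fold higher in IPE than in RPE. The other 5 fibroblast markers were lower in IPE than in RPE, and 6 of the 7 were lower in IPE than in CBPE. Of 7 markers of retinal neurons and glia, 6 were measured, of which 3, 3 and 2 were above the floor in IPE, RPE and CBPE, with summed signals of 6533.4, 1370.1 and 624.1. Most of that sum came from Apoe, which in IPE exceeded RPE 6.68-fold and CBPE 13.5-fold, and Glul, which exceeded them 3.44-fold and 8.26-fold. The photoreceptor genes Rcvrn and Crx were under the floor on all 3 arrays. Sag passed it in RPE alone, at 21.8, and Gfap in IPE alone, at 17.1, both near the floor. The part of the macrophage, fibroblast and neural markers in the members' differences was not tested. Fewer pigmented cells and less RNA per pigmented cell cannot be told apart in these bulk cultures.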

How the data were processed

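Total RNA of 3 cultures was hybridised to 1 array each. The authors deposited linear intensity values for 45101 probe sets, 64 of them controls; the sources used here do not name the software or the summary method. Symbols came from a platform annotation of 2016, checked by gene identifier against RefSeq GRCm38.p6; 34958 probe sets had 1 gene, and 932 with several were not used. Signals under the floor (50th percentile of each array's non-control probe sets) were set to it, and log2 was taken. A gene counted as tested where either array passed the floor, and was called at 2-fold or more. No p-value, SE or interval can be had from 1 array per culture, and arrays have no counting depth. Probe set disagreement was pooled over genes with signals above 100 on both arrays (1773, 1666 and 1693 genes). The calling was also run on simulated signals. Their changes were larger than 2-fold, were set only in bright genes, and had less noise than the probe set disagreement of the IPE comparisons. That run therefore cannot speak for calls near 2-fold or near the floor.

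All members are accounted for by role. Members called in any comparison are described in full. Pathway genes called in 2 comparisons and up to 4 called genes per comparison list are named. Members and lists were chosen with earlier results of these data known. Python 3.11.15, numpy 2.4.6, pandas 2.3.3 and matplotlib 3.10.9 were used. Alternatives were other floors, quantile normalization, centring, other probe set rules and other fold limits.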

Additional observations from a re-analysis of the deposited data

How the results depend on the processing

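No paired analysis was possible because each culture has 1 array, and no replicate could be left out. Of the 20 member calls, all 20 were kept with a floor at the 25th percentile, with no floor, with centring on the median gene and without _x, _s and _a probe sets, and 16 with quantile normalization or with the mean of all probe sets; none was reversed. The lower floor and no floor added Mlph against RPE. With a floor at the 75th percentile, 11 of 14 calls that could still be made were kept. The calls on Rab27a in IPE against RPE and CBPE and on Hps5 for RPE against CBPE were lost. At this floor 4 of 27 members were higher and 1 lower for IPE against RPE, beside 8.97% and 8.07% of all genes tested. For IPE against CBPE 5 of 26 members were higher and 0 lower, beside 11.6% and 9.34% of genes. For RPE against CBPE 1 of 26 members was higher and 0 lower, beside 2% and 2.17% of genes. A CBPE floor of 20.2, chosen after seeing the data, kept 19 of 20 calls and lost Rab27a in RPE against CBPE. Quantile normalization moved the median of all genes for IPE minus CBPE to -0.13. It gave 5 members higher and 2 lower in IPE against CBPE, beside 9.53% and 13.3% of all genes tested. It lost Myo5a in both IPE comparisons and Rab32 and Hps5 against CBPE, while Hps5 against RPE and Bloc1s2 against CBPE were added as lower in IPE. The mean of all probe sets lost Rab27a in all 3 comparisons, since its dim probe sets were averaged in, and Myo5a against RPE; it added Ap3b1, Vps33a and Atp7a as higher in IPE than in CBPE, and Atp7a in RPE against CBPE. At a 1.5-fold limit 10 of 33 members were higher and 4 lower for IPE against RPE, beside 22.2% and 21.7% of all genes tested. For IPE against CBPE 13 were higher and 6 lower, beside 23.3% and 24.4% of genes. For RPE against CBPE, Hps5, Rab27a and Rab38 were higher and 2 members lower, beside 12.7% and 13.4% of genes. At this limit 10 members were higher in IPE than in both others. The share of all genes with this pattern was counted only at the main setting (6.39%). Its member counts at other settings therefore have no share beside them. At 3-fold the counts were 1 higher and 0 lower for IPE against RPE, beside 3.47% and 3.12% of all genes tested. They were 4 and 0 for IPE against CBPE, beside 4.82% and 4.24% of genes. For RPE against CBPE 1 member was higher, beside 0.731% of genes. At 3-fold 1 member (Lyst) was higher in IPE than in both others. The count of 6 such members, added after the data were seen, was 4 with the floor at the 75th percentile, with quantile normalization and with averaged probe sets, and Lyst and Gpnmb were among them each time. The single array per culture limits every value.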
